A study of Mus musculus with 8 samples.

Results

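The comparison of fasted adult with fetal wild-type mouse liver rests on 4 of the 8 arrays of a series on Btg2 (TIS21), a BTG/TOB family gene that restrains growth. Adult liver was taken from C57BL/6J males aged 10 weeks after 20 h without food and gave 1 RNA sample, read on 2 arrays. Fetal liver was taken at embryonic day 13.5 and pooled from more than 3 fetuses of 1 litter, males and females together, and also gave 1 RNA sample on 2 arrays. The sources used here do not state how many adult mice were used. The other 4 arrays hold 1 adult and 1 fetal sample of Btg2 knockout mice, prepared the same way, and serve here as a second pair of samples. Age, fasting and sex composition differ together between the adult and the fetal sample and cannot be told apart.

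The liver is the main site of blood formation in the mid-gestation mouse fetus. At that time hepatoblasts, the bipotent precursors of hepatocytes and bile duct cells, are dividing and are mixed with a large population of red cell precursors. After birth blood formation moves to the bone marrow, hepatocytes leave the cell cycle, and the genes for drug metabolism, urea synthesis, bile acid synthesis and glucose release come on in steps. Fasting adds its own programme in the adult liver, in which glucocorticoid, glucagon and PPARα signalling favour gluconeogenesis, fat oxidation and ketone production.

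Values are log2 of the processed signal minus that array's 75th percentile, so a value of 0 is the level of that percentile, and a difference of 1 is 2-fold. The 75th-percentile signals were 133 and 132 on the adult arrays and 333 and 324 on the fetal arrays. Of 55681 probes, 38.5% and 41.1% were well above background on the adult arrays and 61.1% and 49.8% on the fetal arrays. The duplicate arrays correlated at r = 0.992 in adult and 0.996 in fetal liver over the genes tested, and duplicates differed with an SD of 0.18 and 0.15 among genes well above background on all 4 arrays. Because 2 arrays of a group share 1 RNA sample, no p-value compares the stages, and the SE given below is array error only. The adult arrays lay in 1 column of the slide and the fetal arrays in another, so slide column and stage cannot be told apart.

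The labels held up against the defining genes. Btg2 stood at 0.16 and 0.26 on the wild-type adult arrays and 2.64 and 2.68 on the wild-type fetal arrays. It was not well above background on any of the 4 knockout arrays, where it read -4.77, -4.40, -5.93 and -5.75. Albumin was bright at both stages, alpha-fetoprotein and the embryonic globins were bright in the fetal pool only, and Xist, the RNA of the inactive X chromosome, was dim on the arrays of the male adult sample, below the mark for well above background on each (-4.64 and -4.48, against -0.43 and -0.59 in the pool of both sexes).

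A gene is called higher or lower in adult liver where the group means differ by at least 2-fold and both arrays of 1 stage lie above both arrays of the other. Where both arrays of 1 stage read a gene as not well above background (dim), its difference is a lower bound, computed against the dimmest signal still well above background on each array, and the bound itself had to reach 2-fold. Of 14407 genes tested, 3856 (26.8%) were called higher in adult liver and 3248 (22.5%) lower. At 4-fold the counts were 2091 (14.5%) and 1595 (11.1%), at 8-fold 1184 (8.22%) and 791 (5.49%), and at 32-fold 397 (2.76%) and 223 (1.55%). The median difference over all genes tested was -0.02. Adult and fetal means correlated at r = 0.683 across genes, which are not independent replicates. In RNA of whole tissue, fewer cells of a type and less RNA per cell cannot be told apart.

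The split between higher and lower depended on how the arrays were put on a common scale. Higher calls made up 54.3% of all calls with the 75th percentile, 44.8% with quantile normalization and with the deposited value table, 39.2% with the 75th percentile of probes above background on all 4 arrays, 33.1% with the median, and 18.5% with no scaling. These settings moved the median of all genes by -0.31, -0.32, -0.43, -0.63 and -1.31. Of the 7104 calls, 4921 (69.3%) were kept under every scaling other than none, under another background correction and in the deposited table, and none turned to the opposite call under any scaling. The dimmest signal well above background was -2.54 and -2.44 on the adult arrays and -4.59 and -4.30 on the fetal arrays, so the bounds on genes that were dim in adult liver are the looser ones. This bears on 2661 genes dim in adult liver, of which 1010 were called lower, against 190 dim in fetal liver, all called higher.

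**Figure D1:**
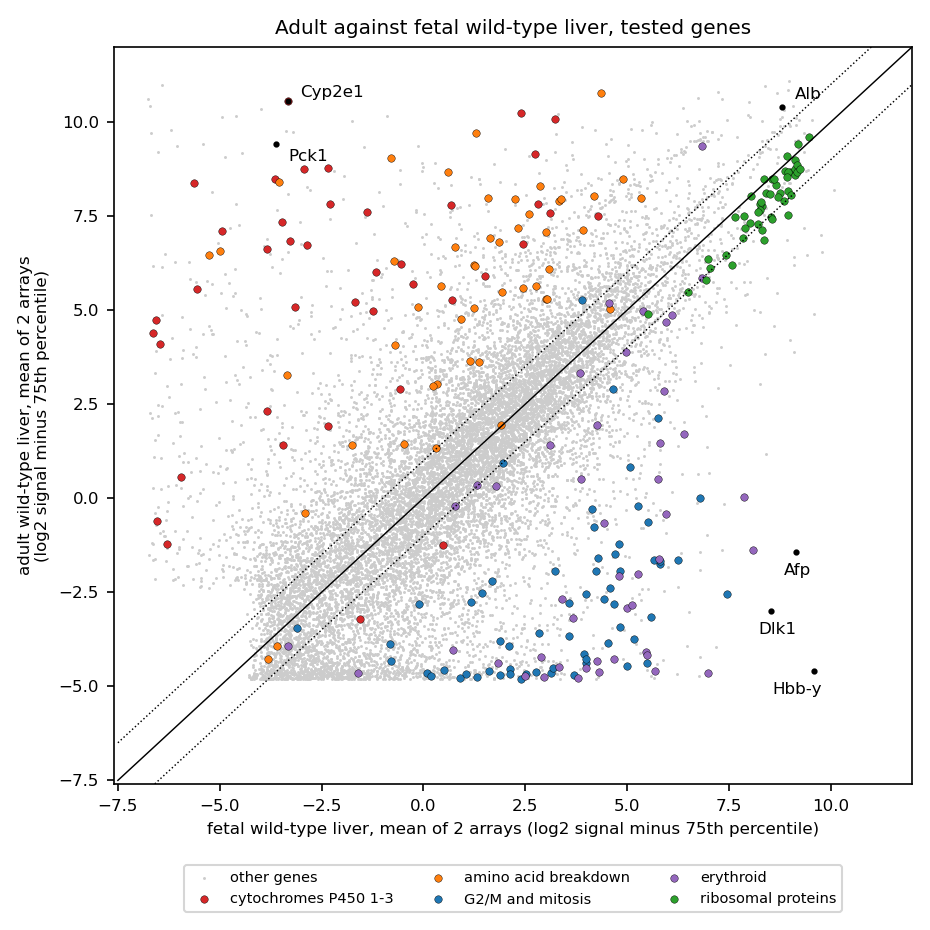
Mean level of each tested gene in adult (vertical axis) against fetal (horizontal axis) wild-type liver, each the mean of 2 arrays on the log2 scale relative to the array's 75th percentile. The solid line marks equal values and the dotted lines 2-fold. The cytochromes P450 and amino acid enzymes lie mostly above the upper dotted line, the mitotic and erythroid genes mostly below the lower one, and the ribosomal proteins near or just below the solid line. Many genes at the left and lower edges were not measured above background at that stage.

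In the albumin gene family, RNA of alpha-fetoprotein was lower in adult liver, while RNA of albumin was bright at both stages and higher in adult. Alpha-fetoprotein (Afp), the albumin relative secreted by fetal liver and yolk sac, read 9.12 and 9.20 on the fetal arrays and -1.41 and -1.43 on the adult arrays. Its difference of -10.58 ± 0.04 (SE, n = 2 arrays a stage) was the largest drop among genes well above background on all 4 arrays. Albumin (Alb) read 8.83 and 8.78 in fetal and 10.36 and 10.43 in adult liver, a difference of 1.59 ± 0.04. The fetal and adult arrays did not overlap for either gene. Among 21 hepatoblast and fetal liver genes, 13 were called lower in adult, 5 higher and 3 neither, with a median of -3.66. Dlk1, a surface protein of hepatoblasts, read 8.49 and 8.57 in fetal liver and was not well above background in adult liver, which puts it at least 2074-fold lower there. Bex2, Lin28b, Igf2bp1 and the heparan sulfate proteoglycan Gpc3 were also called lower. For Gpc3, 1 of the 2 adult arrays was still well above background. The 5 higher members were Ahsg, Krt8, Krt18, Spp1 and the hepatocyte growth factor receptor Met (2.95). The epithelial keratins of hepatocytes went the other way from Krt19 (-3.64), which is in both the bile duct and the mesothelial list. Bile duct genes went both ways, with 2 to 4 higher and 4 to 8 lower over the scalings and the background correction tried. The median of that list changes sign with them.

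Secreted proteins of the hepatocyte were higher almost throughout. Of 29 plasma protein genes tested, 28 were called higher and 1 lower, with a median of 3.29. The exception was Serpina6, the corticosteroid-binding globulin, which read 7.92 and 7.99 in fetal and 5.47 and 5.38 in adult liver (-2.53 ± 0.06). The size of the difference varied widely within the list. Itih2 (1.36), albumin, transferrin (1.71) and Ahsg (2.53) were already bright in the fetal pool, whereas the protease inhibitor Serpina3k and the alpha-macroglobulin Mug1 were not well above background there and were at least 44251-fold and 24575-fold higher in adult liver. Serpina3k read 10.99 on both adult arrays. Serpina1, Serpina3 and Mug genes have near-identical copies, so the share of signal belonging to each copy is uncertain.

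Clotting and complement genes were higher with few exceptions. Of 25 coagulation genes, 22 were called higher and 1 lower, with a median of 3.12. The factors of hepatocyte origin ranged from F11 (2.25) and F2, prothrombin (3.27), to F9 (6.74). Those not called higher included F13a1, a factor XIII subunit made by platelets and macrophages, which was at least 27.4-fold lower, and von Willebrand factor of endothelium and megakaryocytes (-0.76). Of 25 complement genes, 23 were called higher and none lower, with a median of 4.37. The membrane attack components C6 (8.77, with only 1 fetal array well above background) and C9 (at least 355-fold), the lectin Mbl2 (9.24) and the regulator C4bp (8.91) had the largest differences. C5ar1 and Cfp, which leukocytes express, were at -0.48 and -0.30. Of 17 apolipoprotein genes, 15 were higher, from Pltp (1.71) and Apoa2 (2.57) to Apoc3 (11.06) and Apoa5 (at least 1167-fold), and Apod was lower (-1.43, well above background on only 1 of the 2 adult arrays).

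Promoter sequence was examined for these genes because hepatocyte nuclear factor 1 (HNF1) is known to drive several plasma protein genes. In the 250 bases before the start, the 6 letters GTTAAT on either strand, which are 1 arm of the palindromic HNF1 motif, occurred in 10 of 21 plasma protein promoters (47.6%), 6 of 15 complement promoters (40.0%) and 4 of 20 coagulation promoters (20.0%). The share was 6.43% among all 32841 RefSeq promoters and 4.37% among the 9169 tested genes with 1 promoter in the table. The full palindromic HNF1 motif was searched as well. It occurred in 0 of the plasma protein, complement and coagulation promoters. It was also in 0 of the 9169 promoters of tested genes and in 3 of all 32841, so an exact match was rare everywhere. Median GC content was 48%, 46.8% and 49.2% in the plasma protein, complement and coagulation promoters. It was 52.4% over all promoters and 59.2% in those of tested genes. The sets were not matched for base composition, and GTTAAT is rich in A and T. The promoters shown belong to the plasma protein and the complement gene with the largest measured difference whose window holds the letters, with matches in capitals, from RefSeq on GRCm38.p6. The Mug1 window is chr6:121838291-121838540 on the plus strand and its match begins 73 bases before the start. The C4bp window is chr1:130661619-130661868 on the minus strand and its match begins 64 bases before the start. A match describes the letters and does not show a bound site.
Mug1: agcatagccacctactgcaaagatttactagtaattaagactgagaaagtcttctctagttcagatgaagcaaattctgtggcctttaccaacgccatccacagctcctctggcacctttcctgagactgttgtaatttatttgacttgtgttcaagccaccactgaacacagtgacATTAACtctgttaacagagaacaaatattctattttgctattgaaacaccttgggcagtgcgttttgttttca
C4bp: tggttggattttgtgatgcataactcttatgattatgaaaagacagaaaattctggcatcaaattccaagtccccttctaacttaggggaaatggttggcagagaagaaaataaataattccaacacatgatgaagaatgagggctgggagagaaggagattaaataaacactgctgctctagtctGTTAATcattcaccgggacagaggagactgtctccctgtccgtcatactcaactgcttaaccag

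Drug- and steroid-metabolizing cytochromes P450 were among the largest differences in the data. Of 41 genes tested, members of families 1 to 3 with their reductase, 39 were called higher and 1 lower, with a median of 6.92. Cyp2e1, which oxidizes ethanol and acetone and is induced by fasting, read -3.35 and -3.30 on the fetal and 10.56 and 10.58 on the adult arrays. Its difference of 13.90 ± 0.03 was the largest among genes well above background on all 4 arrays. Cyp3a11, the main mouse Cyp3a drug-metabolizing enzyme, read -2.34 and -2.33 against 8.79 and 8.78. Cyp2a4 (12.13) and Cyp2f2 (11.69) came close to these, and Cyp2c50, dim in fetal liver, was at least 7313-fold higher. The smaller differences were those of Cyp2c67 (3.21) and Cyp2r1 (3.47), a vitamin D 25-hydroxylase. The exceptions were Cyp2s1, an enzyme of epithelia outside the liver, at -1.73, and Cyp1b1, with a bound of 1.91-fold lower that did not reach a call. Por, that reductase, which supplies electrons to all microsomal P450s, was 5.02 higher. Many Cyp2c, Cyp2d and Cyp3a genes are near-identical copies, and values for single copies are uncertain.

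The conjugating enzymes that follow P450 in detoxification were likewise higher, 41 of 45 tested with 2 lower and a median of 4.59. They included the glucuronosyltransferases Ugt2a3 (at least 1092-fold) and Ugt3a2 (9.78, with another probe at 5.99), the methyltransferase Nnmt (9.87) and the glutathione transferase Gsta2 (9.02). Mgst3 (-3.29) and Gstm5 (-3.16) were lower. Promoters of the P450 list were searched for CAAAGTCCA on either strand, a sequence of the kind bound by the liver receptor HNF4. The 9 letters occurred in 6 of 32 P450 promoters (18.8%), against 0.38% of all promoters and 0.43% of those of tested genes. Many P450 genes are near-identical copies, so their promoters are not independent. Whether the 6 promoters are copies of one another was not tested. Median GC content was 47.2% in the P450 promoters, against 52.4% over all promoters and 59.2% in those of tested genes, and the sets were not matched for it. The P450 gene with the largest difference whose window holds it was Cyp3a11, at chr5:145879855-145880104 on the minus strand of GRCm38.p6, with the match, in capitals, beginning 109 bases before the start.
Cyp3a11: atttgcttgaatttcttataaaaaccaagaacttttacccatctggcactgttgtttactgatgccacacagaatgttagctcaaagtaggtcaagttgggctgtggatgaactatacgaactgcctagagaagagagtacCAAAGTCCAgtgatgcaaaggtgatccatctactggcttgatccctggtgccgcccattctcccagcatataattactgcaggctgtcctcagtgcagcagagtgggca

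Nitrogen and amino acid metabolism shifted as a block. Of 14 urea cycle and glutamine genes, 13 were called higher, with a median of 4.66. Carbamoyl phosphate synthetase (Cps1), which starts the cycle, read 6.76 and 7.03 in adult liver and -3.69 and -3.96 in fetal liver, where 1 of the 2 arrays was well above background. Arginase (Arg1), which ends it, read 8.34 and 8.35 against -0.57 and -0.56. Otc (4.45) and Asl (5.56) differed less. Gls2, the hepatocyte glutaminase, was 6.97 higher. Of 49 amino acid breakdown genes, 45 were called higher and none lower, with a median of 4.07. Tyrosine aminotransferase (Tat), a glucocorticoid-responsive enzyme that appears around birth, read 8.44 and 8.37 against -3.67 and -3.42, a difference of 11.95 ± 0.13. Tryptophan dioxygenase (Tdo2, 11.72), serine dehydratase (Sds, 11.58) and Mat1a (9.83) came next, with Tdo2 and Sds well above background on only 1 of the 2 fetal arrays. The genes called neither way were Bcat1, Bcat2, Tdh and Gcat, of which the Bcat enzymes act mainly outside hepatocytes.

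Genes of glucose release were mostly higher. Of 22 gluconeogenesis and glycogen genes, 21 were called higher and none lower, with a median of 4.49. The cytosolic carboxykinase Pck1 read 9.41 and 9.43 in adult and -3.31 and -3.93 in fetal liver (13.04 ± 0.31). Fructose bisphosphatase (Fbp1) differed by 11.78 ± 0.06 and glucose-6-phosphatase (G6pc), well above background on only 1 of the 2 fetal arrays, by 11.92 ± 0.40. The mitochondrial carboxykinase Pck2 was the member not called, with a bound of 1.11-fold lower. Of 30 glycolysis genes, 7 were higher and 11 lower, with a median of -0.31. Over all genes tested 26.8% were higher and 22.5% lower, so the higher share of the list was near that of all genes. Over the scalings and the background correction tried, 6 to 7 of the list were higher and 9 to 18 lower. Direction differed between related genes. Hexokinase 1 read 4.98 and 4.99 in fetal and -0.27 and -0.33 in adult liver, and Hk2 was at least 7.48-fold lower. Slc2a1, the glucose carrier of red cells and growing cells, was lower (-3.61) and Slc2a2, the liver carrier, higher (3.56). Aldoa at -0.51 did not reach 2-fold. Pkm, the pyruvate kinase of dividing cells, was lower (-4.46). Pklr, the liver and red cell form, read lower but did not reach the 2-fold call (0.36 and 0.35 adult against 1.25 and 1.36 fetal).

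**Figure D2:**
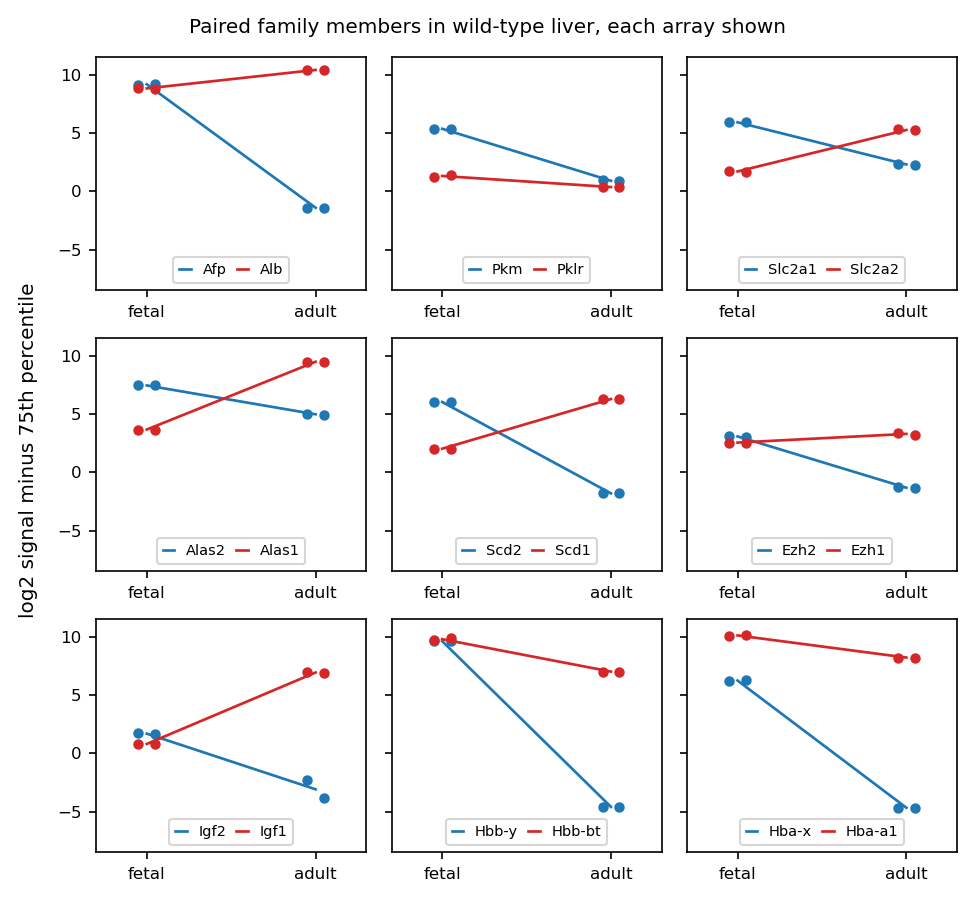
Level of 9 pairs of related genes on each wild-type array (points), with lines joining the means of the 2 fetal and 2 adult arrays; the vertical axis is log2 signal minus the array's 75th percentile. Different probes cannot be set against each other, so only the change along each line is to be read. The gene drawn in blue has a downward line in all 9 panels, and the gene in red an upward line in 6 of them; Pklr, Hbb-bt and Hba-a1 slope downward. Igf2, Hbb-y and Hba-x were dim on the adult arrays.

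Every one of 57 fatty acid oxidation genes tested was called higher, with a median of 4.43 and a range from 1.20 (Acsl5) upward. The Cyp4a omega-hydroxylases, classic PPARα targets, were the largest: Cyp4a14 was not well above background in fetal liver and at least 33946-fold higher in adult liver, and Cyp4a31 (13.14) and Cyp4a10 (12.95) were measured at both stages. Cpt1a, which admits fatty acids to the mitochondrion, read 6.98 and 6.96 against 1.23 and 1.25, and Ppara itself was 5.55 ± 0.05 higher. The muscle isoform Cpt1b had a small difference (1.21) that turned to -0.10 with no scaling. Of 8 ketone body genes, 6 were higher, among them the fasting hormone Fgf21 (at least 104-fold). Oxct1, needed to burn ketones and absent from hepatocytes, was lower (-3.87). The lipid droplet proteins Plin5 (10.39) and Cidec (at least 419-fold, with another probe at 6.53) were higher as well.

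Lipid synthesis was mixed. Of 31 fatty acid and triglyceride synthesis genes, 20 were higher and 3 lower, with a median of 1.87. The core synthesis enzymes Fasn (0.29), Acaca (0.30) and Acly (-0.08) and their regulator Srebf1 (0.05) were not called. The desaturases changed places, Scd2 from 5.98 and 6.05 to -1.81 and -1.82 (-7.83 ± 0.04) and Scd1 from 2.01 on both fetal arrays to 6.28 and 6.26 (4.26 ± 0.01). G6pdx, which feeds the pentose phosphate path, was lower (-4.26). Cholesterol synthesis had more lower than higher genes: 14 of 28 were lower and 9 higher, with a median of -0.92. Sqle read 4.30 and 4.33 in fetal and -0.11 and -0.22 in adult liver. Cyp51 (-2.74) and Lss (-2.54), enzymes of the lanosterol steps, were lower. Sc5d (2.05), of a late step, and the sterol exporters Abcg5 (8.35) and Abcg8 (at least 17.2-fold) were higher.

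Bile acid synthesis and transport was higher in 25 of 27 genes tested, with 1 lower and a median of 5.60. Cyp7a1, the rate-limiting enzyme, was at least 231-fold higher and Cyp8b1 read 4.41 and 4.34 against -4.18 and -6.19, with only 1 of the 2 fetal arrays well above background. The canalicular export pump Abcb11 was 5.60 higher and its sinusoidal uptake partner Slco1b2 10.90 higher. Another uptake carrier, Slc10a1 (0.97), did not reach 2-fold by the probe used, but its other probe gave 9.81, and the basolateral exporter Abcc4 was lower (-1.10). All 17 steroid hormone enzymes tested were higher, with a median of 6.75 (4.89 with genes not measured in fetal liver at their bound).

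Liver-enriched transcription factors were higher in 36 of 45 cases, with 4 lower and a median of 2.79. Hnf4a read 4.31 and 4.34 in fetal and 7.88 and 7.84 in adult liver (3.54 ± 0.02), Foxa2 differed by 2.79, Prox1 by 3.12, and Gata4 (-0.42), Gata6 (-0.44) and Hhex (0.22) were not called. The xenobiotic receptor Nr1i3 read -3.60 and -3.43 against 6.00 and 5.98 (9.50 ± 0.08), and the oestrogen receptor Esr1 was at least 26.0-fold higher. The lower factors were Sox4, Sox11, Thra and Zfpm2. Thra and Thrb, the thyroid hormone receptors, moved apart, by -1.53 and 4.24.

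Genes known to respond to hormones or to differ by sex in adult liver were also compared, and hormone action itself was not tested. The 10 major urinary proteins tested, pheromone carriers under growth hormone control, were all higher with a median of 14.8 (14.2 with unmeasured fetal values at their bound). Mup20 read 10.50 and 10.34 in adult liver and was at least 29807-fold higher, but Mup genes are near-identical and the probes may not separate them. Among growth hormone and IGF genes, 10 of 24 were higher and 6 lower. The median of 0.66 for that list changes sign with the scaling. Igf1, the adult growth factor, read 6.93 and 6.90 against 0.79 on both fetal arrays (6.12 ± 0.01). Igf2, the fetal one, was not well above background in adult liver and at least 16.7-fold lower. Genes known as male-biased in adult liver were higher in 17 of 19 cases, among them Elovl3 (at least 634-fold). Female-biased genes were higher in 9 of 15 and lower in 3, among them Cyp2a4 (12.13). Cyp2a4 has a near-identical copy. Glucocorticoid and fasting genes were higher in 24 of 30, with none lower and a median of 2.87, including Klf9 (6.13) and Zbtb16 (6.15). The metallothioneins Mt1 (-0.53) and Mt2 (-0.98) were not called. Among 19 clock genes, 15 were higher. The repressor Nr1d1 was at least 52.6-fold higher and Dbp 5.72 higher, while Arntl was at -0.60. The sources used here do not state the hour of sampling.

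Genes of blood formation were among the largest lower differences. Of 10 globins tested, 9 were called lower and none higher, with a median of -4.50 (-4.08 at the bounds). The embryonic beta-type globin Hbb-y read 9.57 and 9.63 in fetal liver, while both adult arrays (-4.61 and -4.59) were not well above background, so it was at least 4361-fold lower. Hbb-bh1 was at least 811-fold lower and the embryonic alpha-type globin Hba-x at least 420-fold. The adult globins remained bright in adult liver. Hbb-bt read 9.66 and 9.88 in fetal and 6.996 and 6.991 in adult liver (-2.78 ± 0.11), and Hba-a1 read 10.02 and 10.17 against 8.19 and 8.20. Hba-a2 (0.51) was not called, although it is a near-identical copy of Hba-a1 and the values of either are uncertain.

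Red cell precursor genes were lower too, many by larger steps. Of 46 erythroid genes, 37 were lower, 1 higher and 8 neither, with a median of -6.15 (-5.16 at the bounds). The transcription factor Gata1 read 5.71 and 5.65 in fetal liver and was at least 287-fold lower in adult liver. The red cell anion exchanger Slc4a1 read 8.10 on both fetal arrays and -1.22 and -1.50 on the adult arrays (-9.46 ± 0.14), and Car2, carbonic anhydrase II, differed by -7.84 ± 0.06. The blood group gene Rhd was at least 716-fold lower. The higher member was Hemgn, a haematopoietic nuclear protein, at 9.38 and 9.37 against 6.82 and 6.86. Summed over the 46 genes, signal in multiples of the array's 75th percentile was 906 and 897 in adult and 1968.5 and 1996.5 in fetal liver. Hemgn made up most of the adult sum, and without it the sums were 239 and 235 against 1855 and 1880.3. Of the 46, 20 were dim on both adult arrays, Gata1 and Epb42 among them. Haem synthesis and erythroid iron uptake followed, with 14 of 20 lower and 1 higher. Alas2, the erythroid first enzyme, was lower (-2.47 ± 0.03) and Alas1, the enzyme of other tissues, read 3.66 and 3.65 against 9.46 and 9.47 (5.81). Tfrc, the transferrin receptor, was lower (-4.43). Systemic iron control was higher in 12 of 20 genes with none lower, led by Hamp, hepcidin (11.13 ± 0.05), whose upstream regulators Hjv (3.38), Tfr2 (3.43) and Tmprss6 (4.04) were all higher.

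The 6 letters AGATAA, the GATA factor motif, occurred on either strand in 6 of 26 erythroid promoters (23.1%), against 9.99% of all promoters and 6.69% of those of tested genes. They were also in 18.8% of P450 and 14.3% of plasma protein promoters, lists that were mostly higher in adult, and in 6.12% of G2/M promoters. Rhd has the largest difference among called erythroid genes that hold the motif. Its window is chr4:134864286-134864535 on the plus strand of GRCm38.p6, and the match, in capitals, begins 43 bases before the start.
Rhd: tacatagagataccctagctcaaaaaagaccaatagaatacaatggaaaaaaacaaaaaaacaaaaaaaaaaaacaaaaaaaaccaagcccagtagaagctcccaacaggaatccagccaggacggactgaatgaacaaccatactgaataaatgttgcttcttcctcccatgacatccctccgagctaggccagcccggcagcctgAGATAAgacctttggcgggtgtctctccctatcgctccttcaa

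Other blood lineages were lower too. Of 26 stem and progenitor genes, 14 were lower and 3 higher, with Lyl1 (-6.46), Cd34 (-3.61, with another probe at -1.44) and Kit (-2.48) among the lower. Megakaryocyte and platelet genes were lower in 20 of 25 cases, with Pf4 at 6.09 and 6.12 in fetal and 0.21 and 0.10 in adult liver. Neutrophil granule genes were lower in 13 of 23. Myeloperoxidase (Mpo) was at least 497-fold lower and S100a9 read 7.37 and 7.39 against -0.14 and -0.16. Several members, such as Chil3 (-0.20) and Csf3r (0.65), were not called. The summed level of the neutrophil list was 139 and 136 in adult and 572 and 585 in fetal liver, with 15 of 23 genes dim on both adult arrays. Without Csf3r, the brightest adult member, it was 20.9 and 20.6 against 498 and 511. The stefin genes Stfa1 and Cstdc5, neutrophil-expressed protease inhibitors that share near-identical copies, were at least 617-fold and 618-fold lower.

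Macrophage genes went in both directions. Of 31 tested, 16 were lower, 5 higher and 10 neither, with a median of -1.01. Markers of Kupffer cells, macrophages that live in the liver sinusoids, themselves went both ways. Clec4f read 3.19 and 3.15 against -1.01 and -1.37, and Vsig4 was at least 133-fold higher. Timd4 was at least 3.82-fold lower, and Marco (-2.16), Spic (-2.52) and Adgre1, which encodes F4/80 (0.13 and 0.09 against 1.97 and 2.03), were lower as well. Cd5l (-0.51) and Folr2 (0.09) were not called. Of the broader macrophage genes, Lyz2 was lower (-2.97 ± 0.10), and Csf1r was not called (-0.45), with its 3 probes between -1.99 and 1.39. The summed level of the list was 179 and 175 in adult and 194.5 and 195.5 in fetal liver. Without its brightest adult member, the nuclear receptor Nr1h3, it was 123 and 119 against 188 and 189.8.

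Antigen presentation and interferon-response genes were mostly higher. Of 21 MHC class I pathway genes, 17 were higher and none lower, with a median of 2.04. B2m, the class I light chain, read 4.58 and 4.62 in fetal and 8.08 and 8.06 in adult liver. The class II genes Cd74 (3.87), H2-Aa (2.95), H2-Ab1 (2.94) and H2-Eb1 (3.94) were higher, within a list of 19 that also held 4 lower genes and whose median of 0.15 changes sign with the scaling. Of 34 interferon-stimulated genes, 25 were higher and 2 lower, with Iigp1 at 7.49, and of 30 acute-phase genes 24 were higher and none lower, led by Orm2 (at least 1972-fold). B cell and T cell lists were small and mixed, with 4 higher and 3 lower of 13 and 7 higher and 1 lower of 16. The shares over all genes tested were 26.8% higher and 22.5% lower. The medians of both lists change sign with the scaling or the background correction. Among the higher T cell genes was Zap70 (9.33), for which cross-hybridization of the probes was not tested.

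Cell division genes were lower almost without exception. Of 62 G2/M and mitosis genes, 60 were lower, 1 higher and 1 neither, with a median of -6.39 (-5.40 at the bounds). Mki67, the proliferation marker Ki-67, read 7.46 and 7.43 in fetal and -2.35 and -2.73 in adult liver, where only 1 of the 2 arrays was well above background. Cyclin B1 (Ccnb1) was at least 178-fold lower (another of its 3 probes gave -6.34), topoisomerase IIα (Top2a) at least 89.4-fold and the kinase Plk1 at least 252-fold. In adult liver 36 of the 62 were not well above background on either array. The higher gene was Pttg1, securin (3.88 and 3.90 fetal, 5.30 and 5.24 adult), whose other probe gave 0.66, and Cenpf, dim in adult liver, was not called. Of 58 G1/S and replication genes, 54 were lower and 1 higher, with a median of -4.00. The helicase subunit Mcm5 read 5.52 and 5.53 in fetal liver and was at least 247-fold lower, the methylation maintenance factor Uhrf1 at least 299-fold (another probe gave -2.56), and the sliding clamp Pcna was lower but still bright (6.66 and 6.69 against 3.099 and 3.134). The exception was Mcm10, at 3.63 and 3.61 against 5.57 and 5.47, which differed from the other Mcm genes in direction. Replication-dependent histone genes were lower with them, H2ac4 by -7.85 ± 0.06 and H1f5 at least 515-fold.

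Promoters of the cell cycle genes were searched for the motifs known for these groups. E2F letters (TTTCGCGC, TTTGGCGC, TTTCCCGC or TTTGCCGC on either strand) occurred in 9 of 39 G1/S promoters (23.1%), against 1.86% of all promoters and 3.38% of those of tested genes. The CHR element TTTGAA and the NF-Y box CCAAT occurred in 16 (32.7%) and 34 (69.4%) of 49 G2/M promoters, against 15.99% and 33.9% of all promoters and 11.1% and 36.7% of those of tested genes. The CHR letters were also in 31.3% of P450 promoters. CCAAT was also in 61.5% of G1/S, 57.1% of plasma protein, 56.3% of amino acid breakdown and 50% of fatty acid oxidation promoters. It was in 37.5% of P450, 26.7% of complement and 15% of coagulation promoters. The promoters shown have the largest measured difference among called genes of the G2/M list with CHR and CCAAT, and of the G1/S list with E2F letters. The Mki67 window is chr7:135716380-135716629 on the minus strand of GRCm38.p6. It holds 3 NF-Y boxes, beginning 188, 166 and 141 bases before the start, and 2 CHR elements, at 116 and 98 bases. The Mcm5 window is chr8:75109259-75109508 on the plus strand and holds overlapping E2F matches, 1 on each strand, at 153 and 149 bases. Capitals mark the CCAAT and CHR letters in Mki67 and the E2F letters in Mcm5. CCAAT letters in the Mcm5 window are not marked.
Mki67: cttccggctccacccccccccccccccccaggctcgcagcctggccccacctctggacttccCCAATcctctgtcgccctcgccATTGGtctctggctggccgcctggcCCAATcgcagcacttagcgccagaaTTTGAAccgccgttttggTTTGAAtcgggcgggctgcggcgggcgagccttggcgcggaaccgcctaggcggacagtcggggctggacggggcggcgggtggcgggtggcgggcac
Mcm5: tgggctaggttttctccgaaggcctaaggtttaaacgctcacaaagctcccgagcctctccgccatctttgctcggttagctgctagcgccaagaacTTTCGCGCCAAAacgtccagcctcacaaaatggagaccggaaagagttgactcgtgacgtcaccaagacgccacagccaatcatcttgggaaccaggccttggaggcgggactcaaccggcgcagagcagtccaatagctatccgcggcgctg

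Growth-restraining genes went both ways. Of 29 p53 target and CDK inhibitor genes, 8 were higher and 12 lower, with a median of -0.62. Over all genes tested 26.8% were higher and 22.5% lower, so the higher share of the list was near that of all genes. The inhibitor p21 (Cdkn1a) read -0.07 on both fetal arrays and 2.41 and 2.39 on the adult arrays, and Fas (3.90) and Trp53inp1 (3.34) were higher. The imprinted inhibitor p57 (Cdkn1c) was lower (-5.70 ± 0.02), as were Cdkn2d (-3.87) and Trp53 itself (-1.63). Within the BTG/TOB family, Btg2 (-2.45 ± 0.06) and Btg3 (-2.18) were lower, Tob1 (3.80) and Tob2 (2.34) higher, and Btg1 (0.97) not called.

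The fetal growth programme was lower in adult liver beyond the cell cycle. Of 18 genes of the Lin28, Igf2bp and Hmga group, RNA-binding and chromatin proteins of embryonic growth, 15 were lower and none higher, with a median of -3.20. Lin28b, which blocks let-7 maturation, was at least 50.1-fold lower, although its second probe differed by only -1.79, and Igf2bp1 was at least 28.7-fold lower. Myc read 2.58 and 2.63 against -0.37 and -0.28. Of 28 imprinted genes, 15 were lower, 2 higher and 11 neither. Dlk1, Mest (at least 205-fold, with another probe at -5.74), Meg3 (-6.13, with another probe at -2.44) and Grb10 (at least 20.9-fold) were lower. Plagl1 was lower by -8.22, but another of its 4 probes gave 0.20. Dcn (1.66) and Ddc (2.97) were higher, and Gnas (0.07), Snrpn (-0.28) and Impact (0.37) were not called.

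Connective tissue genes were mostly lower. Of 37 collagen and matrix genes, 26 were lower and 2 higher, with a median of -2.01. Col1a1 read 5.05 and 5.07 in fetal and -1.36 and -1.75 in adult liver, and Col3a1 5.44 and 5.46 against 0.03 and 0.05. Fibronectin (Fn1, 2.43) and Col18a1 (3.37), both made by hepatocytes, were the higher ones. Stellate and fibroblast genes were lower in 19 of 28 and higher in 6, and the higher ones included Lrat (1.29) and Cygb (1.99) of quiescent stellate cells and Ecm1 (4.50). All 10 called of 12 mesothelial genes were lower, with Wt1 at least 22.9-fold. Endothelial genes were higher in 11 of 31 and lower in none, against 26.8% higher and 22.5% lower over all genes tested. Over the scalings and the background correction tried, 5 to 11 were higher and 0 to 10 lower. Clec4g (4.40), Dnase1l3 (4.32) and Fcgr2b (3.58), markers of the sinusoidal endothelium, had the largest differences in the list. Other sinusoidal markers, Stab1 (0.62), Lyve1 (-0.83), Oit3 (0.60) and Gpr182 (0.49), were not called. Among genes of endothelium in general, the growth factor receptors Flt1 and Kdr (1.17) were higher, and Cdh5 (-0.14), Tek (-0.18) and Pecam1 (0.36) were not called. The list median of 0.60 changes sign with the scaling.

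Heart muscle genes, and some skeletal muscle and epidermal genes, were also read in the fetal pool. Of 21 heart muscle genes tested, 18 were lower in adult, 1 higher and 2 neither, with a median of -4.64 (-3.36 at the bounds). The cardiac actin Actc1 read 5.89 and 5.90 on the fetal arrays and was at least 333-fold lower in adult liver, and the ventricular light chain Myl2 was at least 224-fold lower. The summed level of the list was 14.6 and 15.3 in adult and 212 and 214.5 in fetal liver, and 16 of the 21 genes, including Actc1, Myh7, Myl2 and Nppa, were dim on both adult arrays. Without Csrp3, the brightest adult member, the sums were 2.21 and 3.17 against 210.3 and 213. Skeletal muscle genes were lower in 9 of 15, with Neb (2.51) and Pvalb (2.36) higher. The epidermal keratins Krt5 (at least 66.7-fold, with another probe at -1.83) and Krt14 (at least 15.0-fold) were lower within a list of 16 that had 5 lower and 2 higher members. Over the scalings and the background correction tried, the gut and pancreas list had 5 to 6 higher and 0 to 4 lower genes. The lung, kidney and adrenal list had 3 higher and 2 to 3 lower. Over all genes tested 22.5% were lower. Whether adjoining fetal tissue had a part in these lists, or in other lower lists such as the collagens, was not tested. Hox genes were near background, with 7 lower and 1 higher of 23, and that median of -1.14 changes sign with the background correction.

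Ribosome and mitochondrial genes showed small differences that rest on the scaling. Of 48 cytosolic ribosomal protein genes, 8 were lower and none higher, in a narrow range from -1.50 (Rpl3) to 0.21 (Rpl10). Over the scalings and the background correction tried, 8 to 48 of them were lower. Of 54 oxidative phosphorylation subunits, 36 were higher and none lower, with a median of 1.15, but 0 to 36 were higher over the scalings and the median was -0.16 with no scaling. Ribosome assembly factors were lower in 21 of 37 and higher in 1, including Nop56 (-2.73), dyskerin (Dkc1, -2.69) and nucleophosmin (Npm1, -2.47), and this list kept a negative median under all scalings.

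**Figure D3:**
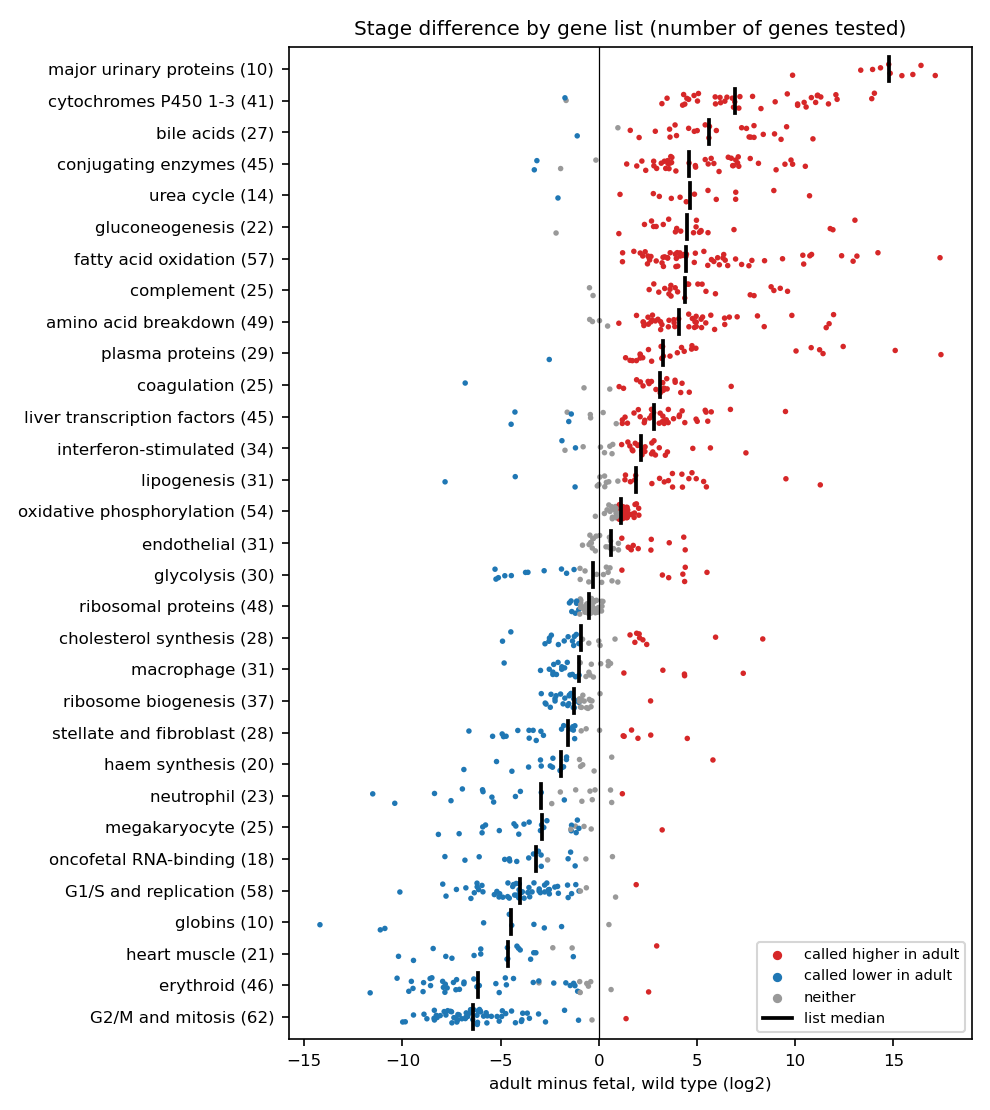
Difference between adult and fetal wild-type liver (horizontal axis, log2) for each tested gene of 31 lists, with the number of genes tested in parentheses; points are genes, red called higher in adult, blue called lower, grey neither, and the black bar is the list median. Genes not measured above background at 1 stage are drawn at their measured difference, which may be imprecise. The medians run from 14.8 for the major urinary proteins to -6.39 for the G2/M genes.

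The knockout samples gave a second pair of adult and fetal RNA, which differ from these in genotype and share no RNA with them. With the same rules, 3652 of 14100 genes tested (25.9%) were higher in knockout adult liver and 3350 (23.8%) lower. Of the 3856 genes higher in wild-type adult liver, 99.1% had the same sign in the knockout pair and 81.5% the same call, and of the 3248 lower genes 98.0% and 84.9%. Across the genes tested the differences of the pairs correlated at r = 0.957, and genes are not independent replicates. Afp differed by -11.12 and Cyp2e1 by 13.07 in the knockout pair. There Hbb-y was dim in adult and Pck1 in fetal liver, with bounds of -12.51 and 13.22 on the log2 scale. Only 16 genes had opposite calls, 4 higher and 12 lower in wild-type adult liver.

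The macrophage list had medians of opposite sign in the pairs. It had 16 lower and 5 higher genes in wild type but 3 lower and 19 higher in the knockout pair, with medians of -1.01 and 1.27. Adgre1 read 3.31 and 3.37 in knockout adult and 2.22 and 2.20 in knockout fetal liver, so the fetal samples were alike and the adult samples apart. Lyz2 showed the same layout, at 2.21 and 2.23 against 1.18 and 1.12. Cholesterol synthesis was lower in 14 and higher in 9 genes in wild type and lower in 5 and higher in 10 in the knockout pair, with Sqle at -4.48 and -2.07. Fgf21, at least 104-fold higher in wild-type adult liver, was dim at both knockout stages. Csrp3, the higher gene of the heart muscle list (2.94 ± 0.02), was at -0.05 in the knockout pair. Whether such values differ between genotypes could not be tested with 1 RNA sample each.

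**Figure D4:**
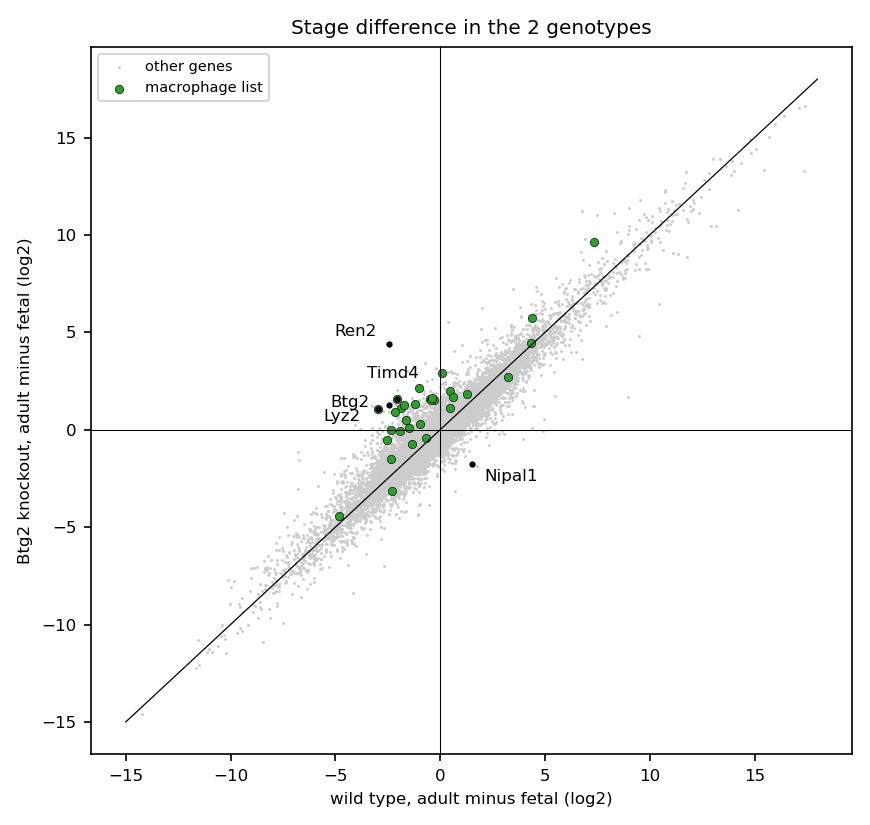
Difference between adult and fetal liver (log2) in the knockout pair (vertical axis) against the wild-type pair (horizontal axis) for each gene tested in wild type; the diagonal marks equal differences. Most genes lie along the diagonal. The green macrophage genes lie mostly above it, with Lyz2 and Timd4 negative in wild type and positive in the knockout pair. Btg2 itself was not measured above background in the knockout samples.

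Promoter composition differed between the lists more than between all higher and all lower genes. The observed over expected CpG ratio, which is high in CpG islands, had a median of 0.37 over all promoters, 0.70 in tested genes, 0.62 in genes higher in adult and 0.71 in genes lower. Among the 248 genes at least 32-fold higher it was 0.22, and among the 143 at least 32-fold lower 0.56. P450 and plasma protein promoters had medians of 0.14, complement 0.19, erythroid 0.35, G2/M 0.80 and G1/S 0.86. A TATA box (TATAAA on either strand) was found in 53.1% of P450 promoters, against 12.4% of all. Many P450 genes are near-identical copies, so their promoters are not independent. Of 14407 tested genes, 11437 were in the promoter table, and only those with 1 promoter there were counted.

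**Figure D5:**
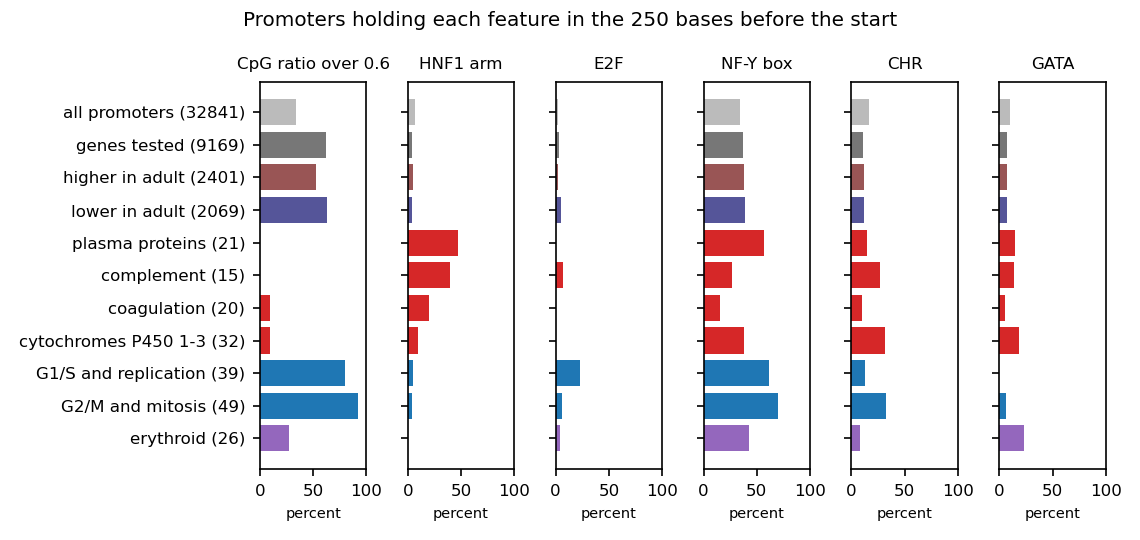
Share of promoters (horizontal axes, percent) holding each feature in the 250 bases before the start, for all promoters, genes tested, genes called and 7 lists, with the number of promoters in parentheses; red bars are lists that are mostly higher in adult, blue and purple bars lists that are mostly lower. No plasma protein or complement promoter has a CpG ratio over 0.6, against 91.8% of G2/M promoters, and the HNF1 arm is most frequent in the plasma protein list.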

How the data were processed

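Liver RNA was measured on 1-colour Agilent arrays, 2 arrays for each of 4 RNA samples. Per the labels' protocols, 200 ng of RNA was labelled with Cy3. Per the file headers, the deposited scanner files came from Agilent Feature Extraction 10.7.3.1 and hold the processed signal, an intensity on a linear scale that is already background-corrected, with quality flags. All 8 arrays lay on 1 slide in 1 scan. The deposited value table also holds intensities. Its arrays share a median of 18.1, its normalization is not stated in the sources used here, and it served as an alternative only. No value column was left without a sample (0 columns).

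Control spots and outlier-flagged spots (92 to 181 on the 4 wild-type arrays) were left out, and 0 spots were saturated. Each value is log2 of the processed signal minus the array's 75th percentile. Symbols came from matching probe accessions to the RefSeq table of GRCm38.p6: 26762 probes had a symbol and 28919 had none. A probe was tested if both arrays of at least 1 stage read it as well above background. Of 20284 genes with a probe, 14407 were tested, each through its brightest tested probe over the 4 arrays. In 720 of the 3594 genes with several tested probes, the probes differed in sign, and in 60 of these beyond 2-fold both ways.

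With 1 RNA sample a group (2 technical arrays), calls rest on size and on agreement of both arrays, and limma 3.58.1 in R 4.3.3, tested on simulated data first, served only as an alternative over array error. Alternatives also covered scaling, background correction (normexp), probe choice, the filter, the threshold, the duplicate number as a block and each array left out. The gene lists, and the choice of this comparison, were made with earlier results of these data known. Named genes are the 12 largest measured differences and the 8 largest bounds each way, up to 4 largest calls each way in each list, members a list description needs, fixed pairs of related genes, Btg2, and up to 5 genes each way with opposite calls in the knockout pair. Promoters are the 250 bases before each RefSeq start. Some results are not reported here.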

Additional observations from a re-analysis of the deposited data

Results flagged for a closer look

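The genes and the list below were called in opposite directions in the wild-type and knockout pairs or had medians of opposite sign, with no overlap between arrays; the differences between pairs were not tested, since each sample was 1 RNA. Lyz2 differed by -2.97 in wild type and 1.07 in the knockout pair, Adgre1 by -1.89 and 1.13, Timd4 by -2.08 (at least 3.82-fold lower, dim in wild-type adult liver) and 1.60, and the median of the macrophage list was -1.01 and 1.27. Timd4 read -0.58 and -0.53 in wild-type fetal and -0.52 and -0.61 in knockout fetal liver, and -2.67 and -2.60 against 1.09 and 0.99 in the adult samples. Ren2, which has a near-identical copy in Ren1, differed by -2.45 (at least 5.41-fold lower) and 4.41, and Msx1 by -1.86 (at least 3.105-fold lower) and 1.06. In the other direction, Nipal1 differed by 1.52 and -1.77, Abhd2 by 1.38 and -1.11, Cpt1b by 1.21 and -1.34 and Flvcr2 by 1.10 and -1.10.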

How the results depend on the processing

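The counts of 3856 higher and 3248 lower genes became 2563 and 5169 with median scaling and 1739 and 7642 with no scaling. A 4-fold threshold gave 2091 and 1595, and a filter on all 4 arrays left 2020 lower, because it drops genes dim in adult liver. Taking the measured difference in place of the bound, chosen after seeing the data, gave 3888 and 4068. The sums of the marker lists without their brightest adult member were also chosen after seeing the data. With each array left out in turn, the counts ran from 3803 to 3885 and from 3211 to 3255. The duplicate number, which is also the slide row, as a replicate block in limma gave 3870 higher and 4008 lower genes, against 3871 and 3991 without the block. These counts compare array error only. With no scaling the medians of oxidative phosphorylation, gut and pancreas, and sex-linked genes turned to -0.16, -0.15 and -0.061, and Cox7a2, Cpt1b and Flvcr2 to -0.26, -0.10 and -0.20. The skeletal muscle median became 0.62 with the filter on all 4 arrays and the Hox median 0.22 with normexp. The cause was not tested. Medians of 16 lists changed sign with the scaling or the background correction. The filter on all 4 arrays left no value for the major urinary proteins. Dim signal in adult liver limits the size of the lower calls.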

Other observations

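RNA processing and chromatin genes were lower in adult liver in larger numbers than higher. Of 38 splicing factors, 24 were lower and 1 higher, with Srsf3 (-2.72) and Hnrnpa1 (-2.42) lower and Mbnl3 at least 20.9-fold lower (another probe gave -2.18). The higher one was Esrp2, an epithelial splicing regulator (3.70 on both adult arrays against -0.15 and -0.21). Of 38 genes of DNA methylation, Polycomb and other chromatin or nuclear proteins, 17 were lower and 3 higher. Histone deacetylases, HMG proteins, lamins and Smarca genes were part of that list. It included pairs of related genes: Ezh2 was lower (-4.40) and Ezh1 not called (0.74), while Smarca2 was higher (2.62) and Smarca4 not called (-0.42). The serine synthesis enzymes Phgdh (6.25 on both fetal arrays against -2.39 and -2.31) and Psat1 (-7.79, with another probe at -4.82) were lower, both well above background on only 1 of the 2 adult arrays. Amino acid carriers of growing cells, Slc7a1 (at least 52.6-fold), Slc7a5 (at least 16.1-fold, with another probe at -1.47) and Slc1a5 (-5.11), were lower, and the hepatocyte carrier Slc7a2 (5.41) higher.

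Several calls lay in unbroken runs of neighbouring tested genes, by the gene order of the RefSeq table. Runs of higher genes held 11 genes around the Cyp2d cluster on chromosome 15, 11 of the Ugt2 and Sult1 clusters on chromosome 5, 10 Mup genes on chromosome 4 and 8 carboxylesterase genes on chromosome 8. The longest run of lower genes held 11 Arxes, Bex and Tceal genes on the X chromosome, with a median of -5.52, and 9 genes on chromosome 16, the stefin cluster with Cd86, formed another. Most of these are families of like sequence, and shared probe signal between neighbours was not tested.

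Genes not known as liver genes were bright in adult liver in a few cases, chosen here after their values were seen. Pax2, a kidney developmental factor, read 5.84 and 5.72 in adult and -4.38 and -6.26 in fetal liver, and Zap70, a T cell kinase, 5.33 and 5.32 against -3.75 and -4.27, with its other tested probe at 8.99. Both were well above background on only 1 of the 2 fetal arrays. The knockout pair gave differences of 9.08 and 8.51 for Pax2 and Zap70. Probe sequences were not used here, and cross-hybridization of these probes was not tested.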
